A study of Arabidopsis thaliana with 12 samples.

Results

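Among the 22746 gene probe sets of the Affymetrix ATH1 array, 126 gave a lower signal in untreated seedlings of both msg2 and axr2, a pair of Arabidopsis auxin-response mutants, than in untreated wild type. A probe set was a member if its mean log2 signal was lower than the untreated wild-type mean by 0.8 or more in each untreated mutant. In addition, the untreated wild-type mean had to be 8 or more, and the wild-type mean with 24-epibrassinolide (24-eBL), a brassinosteroid, had to lie within 0.8 of it. Named families were left out (expansins, XTH, SWEET, ATG8, tetraspanins, glycosyltransferases of the UGT type and photosynthesis genes). The 4 single genes IAGLU, AT2G18010, WAG2 and HAT2 were also left out. These exclusions removed 1 probe set, that of EXPA8. Of the 126 members, 50 were paired with 1 gene each, 4 with several genes and 72 with no gene in the probe table used, so the family exclusions could not be applied to those 72. Genes are named only for the 50 single-gene members.

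The study asked how the brassinosteroid response depends on auxin signalling, and its 12 arrays form 6 groups of 2 biological replicates. The groups were untreated (mock) msg2, axr2 and wild type, and msg2, axr2 and wild type grown with 100 nM 24-eBL. All plants were of the Columbia ecotype, and the labels give no allele number for either mutant. After 3 days in the cold and 8 h of light, seedlings grew in darkness on medium with 2% sucrose for 4 days, and RNA came from whole 4-day-old seedlings. The values are the deposited log2 signals, already scaled to a common mean on each array.

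As background, Aux/IAA proteins are repressors that bind auxin response factors on the promoters of auxin-regulated genes. Auxin lets the TIR1/AFB receptors mark Aux/IAA proteins for destruction, which frees the response factors. The msg2 and axr2 mutations are dominant, lie in the genes for IAA19 and IAA7, and make these repressors resistant to destruction, so auxin responses such as hypocotyl bending are weakened. Brassinosteroids promote cell elongation in the dark and share many target genes with auxin. No probe set was paired with IAA19 alone or IAA7 alone, so the genotype labels were not checked by the mutated genes. A point mutation also need not change the transcript level of its gene.

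Correlations between the 2 arrays of a group ran from 0.968 to 0.979, against 0.890 to 0.968 between arrays of different groups. A value at or below its array's own 40th percentile, which lay between 5.99 and 6.34 on the log2 scale, is called dim here. A fold change against a group with dim arrays is given as "at least", with those arrays raised to that percentile. Members had a median absolute difference of 0.17 to 0.29 between the 2 arrays of a group. The widest gap, 4.72, belonged to 1 probe set without a gene in axr2 with 24-eBL.

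In untreated seedlings the members' differences are a description, because these arrays chose them. The difference from wild type had a median of -1.05 in msg2, between -3.65 and -0.80, and a median of -1.68 in axr2, between -8.10 and -0.82. The value of -8.10 came from a probe set with untreated axr2 signals of 0.04 and 0.01, both dim, a fall of at least 3.49-fold. The value of -3.65 came from a probe set with untreated msg2 signals of 4.96 and 6.26, 1 of them dim, a fall of at least 8.45-fold. Both msg2 arrays lay below both wild-type arrays in 126 of 126 members, against 22.2% of all tested probe sets, and both axr2 arrays did so in 126 of 126, against 27.3%. The rule favours such counts through its thresholds on the means. The axr2 mean was below the msg2 mean in 103 of the 126. Of the 7972 probe sets at the same wild-type level and bound, 906 were lower by 0.8 in untreated axr2 and 153 in untreated msg2. Before the exclusions by name 127 were in both lists, which is 83.0% of the msg2 list and 14.0% of the axr2 list. Both comparisons use the same wild-type arrays. At this level and bound 44 probe sets were higher by 0.8 in both, but the minimum wild-type level leaves out genes raised from a lower level, so this number cannot be set against the 127. Seedlings were measured whole, so fewer cells of a type and less RNA per cell cannot be told apart.

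The thresholds divided a continuous range. Just inside the msg2 threshold, differences of -0.801, -0.801 and -0.803 were found, and just outside it AT1G36380 had -0.797 and AT2G44940 had -0.786. On the axr2 threshold AT3G02910 lay inside with -0.820, while AT1G18060 lay outside with -0.793. The wild-type level admitted AT5G15950 with a mean of 8.052 and left out AT1G53080 with 7.948. The bound on wild type with 24-eBL admitted AT1G12250 with -0.777 and AT3G28310 with 0.777, and left out AT5G62340 with -0.832.

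**Figure D1:**
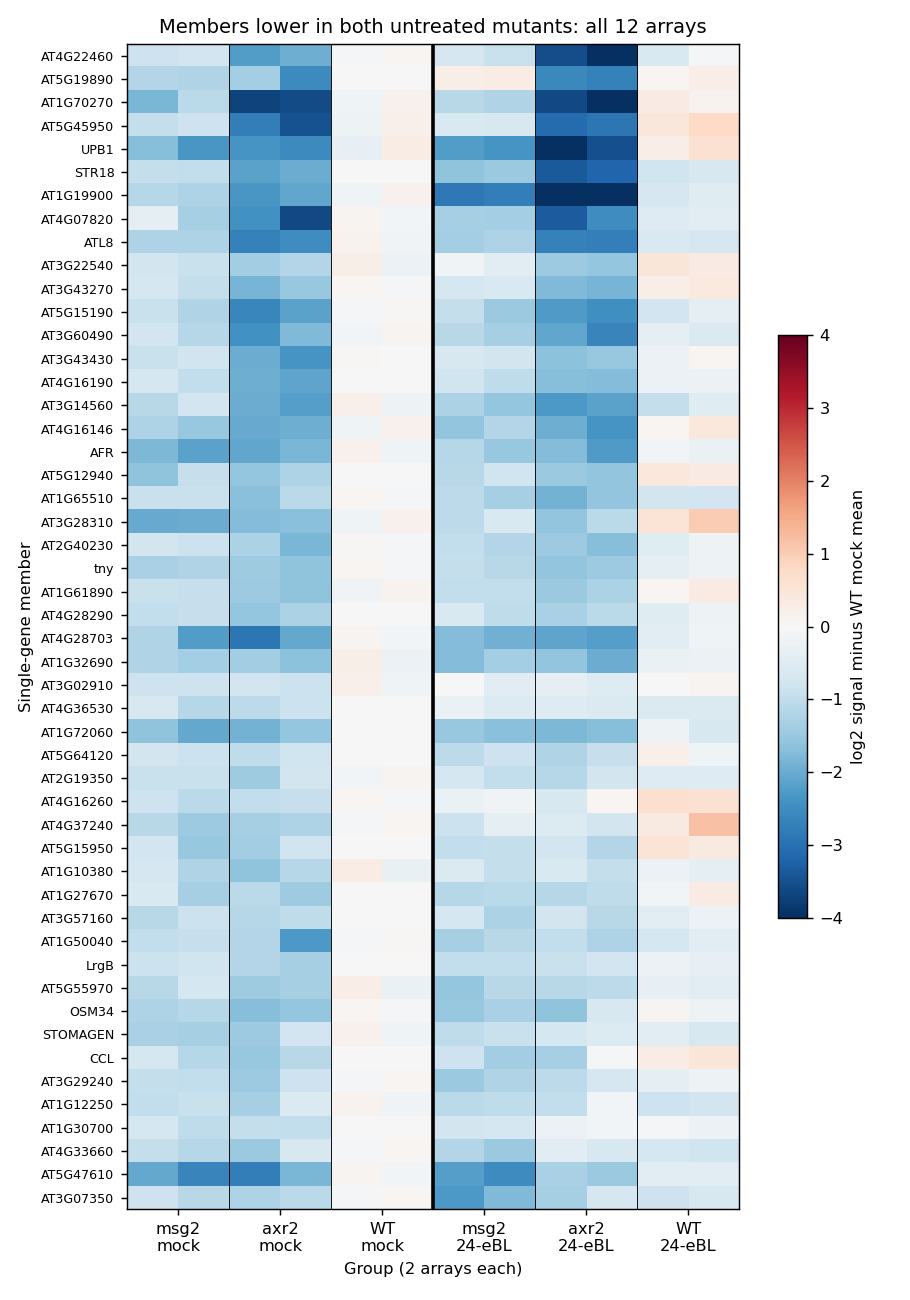
Log2 signal of the 50 single-gene members (rows) on each of the 12 arrays (columns, 2 per group), minus the mean of untreated wild type, with the colour scale running from -4 to 4 and more extreme values shown at its ends. Rows are ordered by the difference between axr2 and msg2 with 24-eBL. The untreated mutant columns are lower by the choice of members, and the treated mutant columns are lower than treated wild type in most rows, with the lowest values in axr2 at the top.

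Whether the members were also lower in mutants grown with 24-eBL was tested, because the treated mutant arrays took no part in the choice. Of the 126 members, 85 fell in msg2 relative to wild type, both with 24-eBL, and 0 rose (limma, adjusted p under 0.05), while 3.45% of all tested probe sets were called lower there and 4.06% higher. At an unadjusted p under 0.05 the number higher in msg2 was also 0. In axr2, 108 fell and 1 rose, against 14.0% of all tested probe sets called lower and 14.6% called higher. The median difference was -0.98 in msg2 and -1.49 in axr2, against -0.02 and 0.02 over all tested probe sets. A total of 81 members fell in both treated mutants, against 2.66% of all tested probe sets. A further 27 fell in axr2 alone, 4 in msg2 alone and 14 in neither, where a call in 1 mutant alone is not a test of the difference between the mutants.

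The treated wild-type arrays entered the rule as a bound, and both treated comparisons use them. Among the 159 probe sets chosen without that bound, 95 fell in msg2, 137 in axr2 and 91 in both. Other probe sets at the same wild-type level and bound were called lower in 3.63% of cases in msg2, 18.5% in axr2 and 2.87% in both. Both treated msg2 arrays lay below both treated wild-type arrays in 118 of 126 members, against 25.6% of all tested probe sets. In treated axr2 this held for 114 of 126, against 30.1%. The ratio of the treated to the untreated difference had a median of 0.86 in each mutant, and it was under 0.5 for 17 members in msg2 and 23 in axr2. The treated difference was at least as large as the untreated one for 49 members in msg2 and 39 in axr2. The untreated differences were chosen for being large, which favours smaller treated ones, so no effect of the treatment is read from this ratio.

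**Figure D2:**
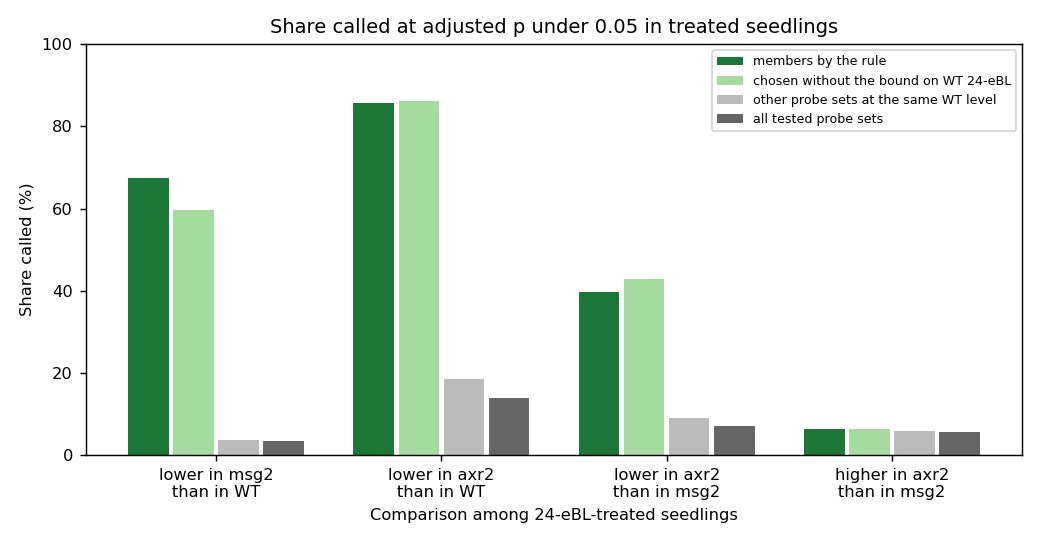
Share of probe sets called at an adjusted p under 0.05 in limma, in percent, for 3 comparisons among seedlings grown with 24-eBL (the last both ways). Bars stand for the 126 members, the 159 probe sets chosen without the bound on treated wild type, the other probe sets at the same wild-type level and bound, and all 15025 tested probe sets; members reach 67.5%, 85.7% and 39.7% in the lower direction and 6.35% in the higher one.

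Within the mutants, the response to 24-eBL is given as values with no test, since their untreated arrays were chosen for being low. The median member differed by -0.06 between treated and untreated msg2, with a range of -1.63 to 1.47. In axr2 the median was 0.13 and the range -2.30 to 1.38, the lowest value being that of AT1G19900, dim on both treated axr2 arrays. In wild type the median was -0.16, within the bound of the rule.

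The single-gene members are described by role. The roles are background knowledge about the genes and the grouping was made after the values had been seen, so the counts per role carry no test of the role itself. Of the 50 genes, 30 could be given a role. For comparison with the counts per role, 32 of the 50 were called lower in treated msg2, 41 in treated axr2 and 31 in both.

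Of 3 genes for transcription factors, 2 fell in treated msg2 and all 3 in treated axr2. UPB1 encodes a basic helix-loop-helix factor known from roots, where it represses peroxidase genes and so shifts the balance between cell division and differentiation. Its log2 signals were 7.75 and 7.13 in untreated msg2, 7.10 and 6.89 in untreated axr2, and 9.13 and 9.76 in untreated wild type. With 24-eBL they were 7.20 and 7.08 in msg2, 4.81 and 5.92 in axr2, and 9.72 and 10.06 in wild type. In both conditions every mutant array lay below both wild-type arrays, and both treated axr2 arrays were dim. In treated seedlings UPB1 fell by 2.75 ± 0.31 (SE, n = 2 arrays a group) in msg2, a 6.71-fold difference with an adjusted p of 2.0e-05 in limma. The fall in treated axr2 was at least 13.1-fold, with an adjusted p of 7.6e-09 in limma. Treated axr2 was also lower than treated msg2, by at least 1.95-fold (adjusted p = 0.00082 in limma).

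The other transcription factor genes encode AP2/ERF proteins. The gene tny, whose overexpression gives small plants, had 10.30 and 10.15 in treated msg2, 9.68 and 9.82 in treated axr2, and 10.90 and 11.05 in treated wild type. The 3 groups did not overlap. It fell by 0.75 ± 0.15 in msg2 (adjusted p = 0.0060 in limma) and by 1.22 ± 0.15 in axr2 (adjusted p = 1.1e-05 in limma), and lay lower in axr2 than in msg2 by 0.48 (adjusted p = 0.049 in limma). Without msg2 24-eBL replicate 2 or wild-type 24-eBL replicate 2 the msg2 call was lost, with adjusted p up to 0.058, and the call between the mutants was lost under 10 of the 12 omissions of 1 array. AT3G60490 fell in axr2 by at least 3.59-fold (adjusted p = 3.7e-05 in limma). Its difference in msg2 was -0.74 ± 0.26 (adjusted p = 0.10 in limma). The lower value in treated axr2 than in treated msg2 (adjusted p = 0.0076 in limma) was no longer called without axr2 24-eBL replicate 2 or msg2 24-eBL replicate 1, where adjusted p reached 0.10.

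All 5 genes for components of ubiquitin ligases fell in both treated mutants. These proteins attach ubiquitin to other proteins, often marking them for destruction. The set comprises the RING-type genes ATL8, AT5G47610, AT5G55970 and AT3G43430, and AFR, an F-box gene with a role in phytochrome A signalling. AT5G47610 had 7.42 and 6.85 in untreated msg2, 6.71 and 7.64 in untreated axr2, and 9.58 and 9.38 in untreated wild type. With 24-eBL the values were 7.29 and 6.97 in msg2, 8.18 and 8.01 in axr2, and 9.04 and 9.03 in wild type. The mutants overlapped each other when untreated, and with 24-eBL axr2 lay between msg2 and wild type. AT5G47610 fell by 1.91 ± 0.27 in treated msg2 (adjusted p = 0.00020 in limma) and by 0.94 ± 0.27 in treated axr2 (adjusted p = 0.012 in limma), and axr2 exceeded msg2 by 0.97 (adjusted p = 0.021 in limma). The axr2 call was lost without axr2 24-eBL replicate 2 or either treated wild-type array (adjusted p up to 0.077). The call between the mutants was lost without either treated axr2 array or msg2 24-eBL replicate 2 (adjusted p up to 0.16).

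ATL8 showed the other order of the mutants. Its signals were 10.23 and 10.21 in untreated msg2, 8.74 and 8.96 in untreated axr2, and 11.59 and 11.30 in untreated wild type. Treated seedlings gave 10.08 and 10.20 in msg2, 8.75 and 8.71 in axr2, and 10.85 and 10.77 in wild type. The axr2 arrays were the lowest and the wild-type arrays the highest in both conditions. ATL8 fell 4.23-fold in treated axr2 (adjusted p = 2.7e-08 in limma) and 1.59-fold in treated msg2 (adjusted p = 0.015 in limma), and axr2 was 2.66-fold lower than msg2 (adjusted p = 7.8e-06 in limma). AFR fell by 1.15 ± 0.23 in treated msg2 and by 1.82 ± 0.23 in treated axr2 (adjusted p = 0.0053 and 1.3e-05 in limma). In treated msg2 the calls for ATL8, AFR, AT5G55970 and AT3G43430 were each lost under omission of at least 1 treated msg2 or treated wild-type array, with adjusted p up to 0.13, 0.067, 0.24 and 0.26. For AT3G43430 this also happened without any 1 of the untreated msg2 or wild-type arrays. For AT5G55970 the axr2 call was lost as well, without any 1 of the treated axr2 or wild-type arrays (adjusted p up to 0.16).

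A pair of class III peroxidase genes, whose products act on hydrogen peroxide in the cell wall, behaved differently in treated msg2. AT5G19890 had 10.12 and 10.10 in untreated msg2, 9.95 and 8.74 in untreated axr2, and 11.33 and 11.28 in untreated wild type. With 24-eBL it had 11.57 and 11.60 in msg2, 8.73 and 8.61 in axr2, and 11.37 and 11.55 in wild type. Treated msg2 thus lay just above treated wild type, while treated axr2 stayed far below both. The difference from treated wild type was 0.12 ± 0.25 in msg2 (adjusted p = 0.84 in limma). In treated axr2 AT5G19890 fell 6.94-fold from the wild-type level (adjusted p = 1.6e-07 in limma), and it was 7.55-fold lower than in treated msg2 (adjusted p = 2.8e-07 in limma). AT5G64120 fell in both treated mutants, by 0.97 ± 0.17 in msg2 and by 1.09 ± 0.17 in axr2 (adjusted p = 0.0013 and 7.2e-05 in limma).

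Another 9 genes encode proteins of the wall or of secreted or defence-related families. Of these, 5 fell in treated msg2 and 7 in treated axr2. AT1G19900, a glyoxal oxidase-related gene, had 9.15 and 9.03 in untreated msg2, 7.95 and 8.19 in untreated axr2, and 10.10 and 10.45 in untreated wild type. Treated seedlings had 7.42 and 7.50 in msg2, 6.16 and 5.39 in axr2, and 9.62 and 9.80 in wild type. Both mutants were lower with 24-eBL than without it, with differences of -1.63 in msg2 and -2.30 in axr2 (values only), the lowest such differences among all members in each mutant. Both treated axr2 arrays were dim, so the size and rank of the axr2 difference are uncertain. AT1G19900 fell 4.76-fold in treated msg2 (adjusted p = 5.8e-06 in limma) and at least 11.5-fold in treated axr2 (adjusted p = 8.1e-10 in limma).

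AT5G45950, of the GDSL lipase family, had 9.39 and 9.51 in untreated msg2, 7.55 and 6.86 in untreated axr2, and 10.12 and 10.54 in untreated wild type. With 24-eBL the values were 9.71 and 9.69 in msg2, 7.24 and 7.45 in axr2, and 10.78 and 11.13 in wild type. The msg2 arrays stood between those of axr2 and wild type in both conditions. The fall in treated seedlings was 2.39-fold in msg2 and 12.2-fold in axr2 (adjusted p = 0.0016 and 1.3e-09 in limma), and axr2 was 5.11-fold lower than msg2 (adjusted p = 7.5e-07 in limma).

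AT4G22460, of the lipid-transfer type, had 9.88 and 9.94 in untreated msg2, 8.50 and 8.76 in untreated axr2, and 10.64 and 10.79 in untreated wild type. Treated seedlings gave 10.04 and 9.82 in msg2, 7.18 and 6.16 in axr2, and 10.12 and 10.65 in wild type. Treated msg2 lay just below treated wild type without a call, at a difference of -0.45 ± 0.25 (adjusted p = 0.33 in limma). The gene fell 13.1-fold in treated axr2 against wild type and was 9.58-fold lower there than in treated msg2 (adjusted p = 6.4e-09 and 9.2e-08 in limma). AT4G07820, related to PR-1 proteins, fell 5.38-fold in treated axr2 (adjusted p = 1.6e-05 in limma). Its difference in treated msg2 was -0.86 ± 0.32 (adjusted p = 0.11 in limma). Treated axr2 was 2.96-fold lower than treated msg2 (adjusted p = 0.0027 in limma), a call lost without axr2 24-eBL replicate 1 (adjusted p = 0.069).

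AT3G43270, a pectin methylesterase gene, fell by 0.98 ± 0.17 in treated msg2 and by 2.14 ± 0.17 in treated axr2 (adjusted p = 0.0017 and 4.6e-08 in limma), and axr2 was lower than msg2 by 1.16 (adjusted p = 0.00016 in limma). OSM34, the osmotin gene of the PR-5 family, fell by 1.35 ± 0.22 in msg2 and by 1.07 ± 0.22 in axr2 (adjusted p = 0.00092 and 0.0013 in limma). The beta-1,3-glucanase gene AT4G16260 fell by 0.83 ± 0.18 in msg2 and by 0.91 ± 0.18 in axr2 (adjusted p = 0.010 and 0.0011 in limma), with the msg2 call lost without msg2 24-eBL replicate 1 or either treated wild-type array (adjusted p up to 0.10). STOMAGEN, which encodes a secreted peptide that promotes stomata, and AT1G30700, of the berberine-bridge-enzyme type, were called in neither mutant.

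Of 7 genes for metabolism, transport or proteolysis, 6 fell in each treated mutant. STR18, a sulfurtransferase gene, had 11.59 and 11.56 in untreated msg2, 10.40 and 10.55 in untreated axr2, and 12.53 and 12.56 in untreated wild type. With 24-eBL it had 10.93 and 11.05 in msg2, 9.19 and 9.38 in axr2, and 11.73 and 11.91 in wild type. The 3 genotypes did not overlap in either condition. STR18 fell 1.78-fold in treated msg2 and 5.81-fold in treated axr2 (adjusted p = 0.0016 and 7.7e-10 in limma), and axr2 was 3.26-fold lower than msg2 (adjusted p = 2.6e-07 in limma). AT4G16190, a papain-type protease gene, fell by 0.68 ± 0.14 in msg2 and by 1.49 ± 0.14 in axr2 (adjusted p = 0.0063 and 3.5e-07 in limma), the msg2 call being lost without msg2 24-eBL replicate 2 (adjusted p = 0.071).

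AT5G15950, for S-adenosylmethionine decarboxylase of polyamine synthesis, fell by 1.42 ± 0.27 in each treated mutant (adjusted p = 0.0033 in msg2 and 0.00063 in axr2, limma). AT1G72060, a peptidase inhibitor gene, fell by 1.17 ± 0.20 in treated msg2 and by 1.33 ± 0.20 in treated axr2 (adjusted p = 0.0017 and 8.4e-05 in limma). AT1G61890, a transporter gene of the MATE type, fell by 1.19 ± 0.17 in treated msg2 and by 1.57 ± 0.17 in treated axr2 (adjusted p = 0.00022 and 1.4e-06 in limma). The acyltransferase-family gene AT2G40230 fell by 0.75 ± 0.19 in msg2 and by 1.24 ± 0.19 in axr2 (adjusted p = 0.023 and 9.6e-05 in limma). Its msg2 call was lost without wild-type 24-eBL replicate 2 or either treated msg2 array (adjusted p up to 0.16).

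Of 3 plastid or light-regulated genes, LrgB and CCL fell in both treated mutants. LrgB encodes a transporter of glycolate and glycerate in the plastid envelope. It fell by 0.70 ± 0.15 in treated msg2 and by 0.54 ± 0.15 in treated axr2 (adjusted p = 0.0095 and 0.013 in limma). CCL, a gene with a clock- and light-regulated transcript, had 8.23 and 7.68 in treated msg2, 7.73 and 8.98 in treated axr2, and 9.38 and 9.54 in treated wild type. The treated axr2 arrays were far apart, and both lay below wild type. CCL fell by 1.51 ± 0.30 in msg2 and by 1.11 ± 0.30 in axr2 (adjusted p = 0.0049 and 0.0099 in limma). All 4 calls were lost under omission of at least 1 treated array, with adjusted p up to 0.078 and 0.086 for LrgB in msg2 and axr2, and up to 0.069 and 0.25 for CCL.

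AT5G12940, for a leucine-rich repeat protein, had 11.07 and 11.37 in treated msg2, 10.70 and 10.60 in treated axr2, and 12.59 and 12.49 in treated wild type, with every mutant array below both wild-type arrays. It fell by 1.32 ± 0.19 in treated msg2 and by 1.89 ± 0.19 in treated axr2 (adjusted p = 0.00025 and 6.6e-07 in limma).

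The other 20 single-gene members have no role given here. AT1G70270 had the lowest average difference of the 50 in untreated mutants. Its signals were 7.41 and 8.16 in untreated msg2, 5.54 and 5.67 in untreated axr2, and 9.07 and 9.42 in untreated wild type. Treated seedlings had 8.13 and 8.05 in msg2, 5.62 and 5.08 in axr2, and 9.56 and 9.37 in wild type. All 4 axr2 arrays were dim. AT1G70270 fell 2.59-fold in treated msg2 (adjusted p = 0.0032 in limma) and at least 9.73-fold in treated axr2 (adjusted p = 2.5e-09 in limma), and axr2 was at least 3.75-fold lower than msg2 (adjusted p = 1.1e-06 in limma).

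AT3G28310 had 7.31 and 7.35 in untreated msg2, 7.58 and 7.66 in untreated axr2, and 9.17 and 9.49 in untreated wild type. With 24-eBL it had 8.29 and 8.72 in msg2, 7.75 and 8.25 in axr2, and 9.89 and 10.33 in wild type. Each genotype had higher means with 24-eBL, and the mutants stayed below wild type. It fell 3.03-fold in treated msg2 and 4.32-fold in treated axr2 (adjusted p = 0.00018 and 1.2e-06 in limma). AT4G28703 fell 2.91-fold in treated msg2 and at least 3.05-fold in treated axr2 (adjusted p = 0.014 and 0.00069 in limma), with the msg2 call lost without any 1 of the treated msg2 or wild-type arrays (adjusted p up to 0.097). AT5G15190 fell by 1.79 ± 0.24 in treated axr2 (adjusted p = 2.2e-05 in limma), while its difference in treated msg2 was -0.65 ± 0.24 (adjusted p = 0.12 in limma). Treated axr2 was 2.20-fold lower than treated msg2 for this gene (adjusted p = 0.0038 in limma), a call lost without msg2 24-eBL replicate 1 (adjusted p = 0.072).

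**Figure D3:**
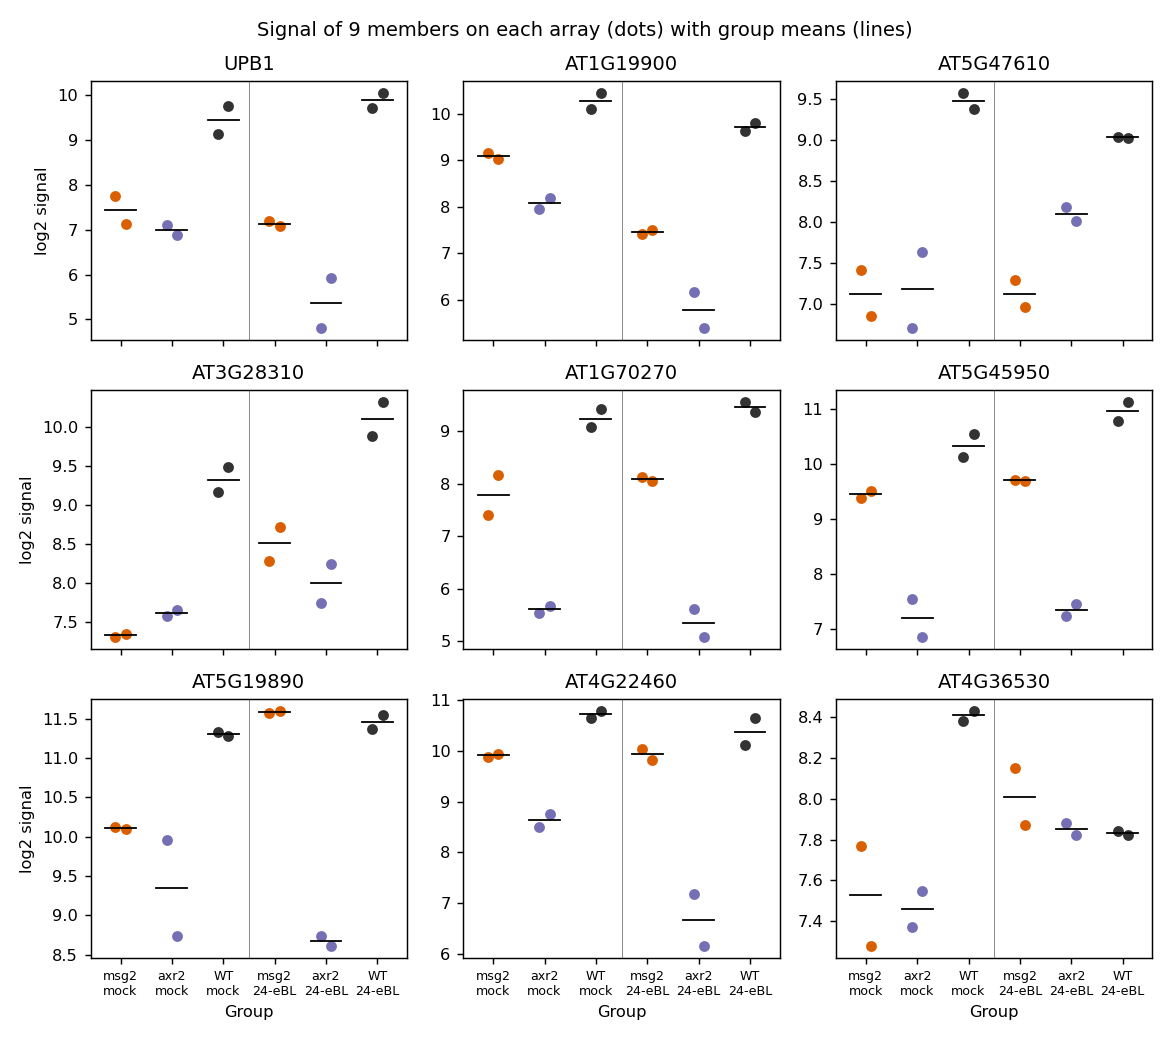
Log2 signal of 9 members on every array (dots, 2 per group) with the group mean (line), for msg2, axr2 and wild type without 24-eBL on the left of each panel and with it on the right. UPB1, AT1G19900, AT3G28310, AT1G70270, AT5G45950 and AT5G47610 lie below wild type in both mutants with 24-eBL, AT4G22460 and AT5G19890 lie far below it in axr2 alone, with 13.1-fold and 6.94-fold differences, and AT4G36530 lies near it in both.

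Of the 50 single-gene members, 8 were called in neither treated mutant, namely AT1G10380, AT1G12250, AT1G30700, AT1G50040, AT2G19350, AT4G33660, AT4G36530 and STOMAGEN. AT4G36530, of the alpha/beta hydrolase family, had 7.77 and 7.28 in untreated msg2, 7.37 and 7.55 in untreated axr2, and 8.38 and 8.43 in untreated wild type. With 24-eBL the signals were 8.15 and 7.87 in msg2, 7.88 and 7.82 in axr2, and 7.84 and 7.82 in wild type. With 24-eBL the genotype means lay close together, the mutant means being higher than untreated and the wild-type mean lower than untreated by 0.57. The rule chose low untreated mutants against untreated wild type, and this gene was named for its small treated differences. Such changes are favoured by the choice, so no response to 24-eBL is read from them. The difference from treated wild type was 0.18 ± 0.21 in msg2 and 0.02 ± 0.21 in axr2 (adjusted p = 0.70 and 0.96 in limma). AT1G12250, for a pentapeptide repeat protein, gave -0.27 ± 0.27 in msg2 and 0.23 ± 0.27 in axr2 (adjusted p = 0.63 and 0.57 in limma).

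STOMAGEN had 8.76 and 8.74 in untreated msg2, 8.60 and 9.28 in untreated axr2, and 10.24 and 9.88 in untreated wild type. Treated seedlings gave 9.04 and 9.17 in msg2, 9.35 and 9.51 in axr2, and 9.61 and 9.41 in wild type. Treated axr2 overlapped treated wild type, and treated msg2 lay just below it. The difference was -0.41 ± 0.21 in msg2 and -0.08 ± 0.21 in axr2 (adjusted p = 0.27 and 0.80 in limma). AT1G30700 differed by -0.57 ± 0.20 in treated msg2 and by -0.02 ± 0.20 in treated axr2 (adjusted p = 0.093 and 0.95 in limma). AT3G02910 fell in treated axr2, by 0.50 ± 0.16 (adjusted p = 0.028 in limma), a call lost without any 1 of the treated axr2 or wild-type arrays (adjusted p up to 0.15). Its treated msg2 difference was -0.28 ± 0.16 (adjusted p = 0.35 in limma).

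The difference between treated axr2 and treated msg2 uses no array of the rule, but its variance was fitted to all arrays, those of the rule included. The untreated means used by the rule were already lower in axr2 than in msg2 for 103 of the 126 members. The comparison is therefore not free of the choice, and whether the treated order goes beyond the untreated one was not tested. Between the treated mutants, 50 of the 126 members were lower in axr2 and 8 were higher (limma, adjusted p under 0.05), against 7.07% and 5.73% of all tested probe sets. The median difference was -0.43, against 0.05 over all tested probe sets, and 91 of the 126 differences were below 0. Other probe sets at the same wild-type level and bound were called lower in 9.13% and higher in 5.98% of cases. Among the single-gene members 18 were lower in axr2 and 3 were higher. The share of members called higher was close to that of all tested probe sets. Their number dropped to 1 without axr2 24-eBL replicate 2, to 2 without msg2 24-eBL replicate 1 and to 4 without msg2 24-eBL replicate 2.

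**Figure D4:**
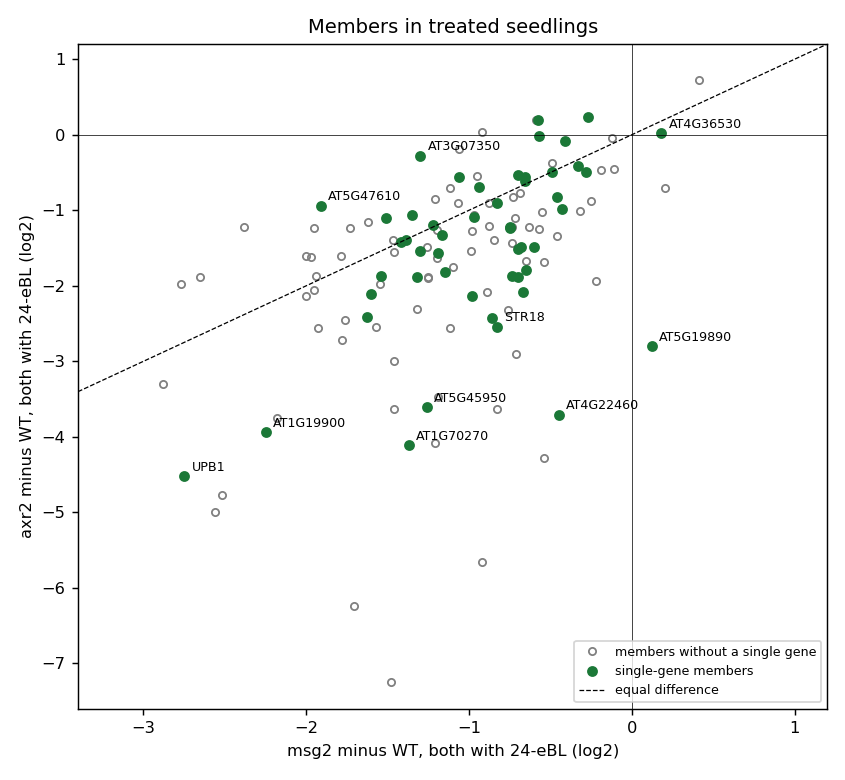
Difference from wild type in seedlings grown with 24-eBL, on the log2 scale, in axr2 (vertical) against msg2 (horizontal) for the 126 members, both differences using the same wild-type arrays. Filled points are the 50 single-gene members and open points the rest, and the dashed line marks equal differences. Most points lie below 0 on both axes and below the dashed line, with AT4G22460 and AT5G19890 far lower in axr2 than in msg2, and AT5G47610 and AT3G07350 above the line.

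The 3 single-gene members higher in treated axr2 than in treated msg2 were AT3G07350, AT5G47610 and AT4G33660. AT3G07350 had 8.86 and 8.58 in untreated msg2, 8.47 and 8.62 in untreated axr2, and 9.60 and 9.77 in untreated wild type. With 24-eBL it had 7.39 and 7.92 in msg2, 8.36 and 9.01 in axr2, and 8.86 and 9.06 in wild type. Only treated msg2 was clear of treated wild type. It fell by 1.30 ± 0.23 in treated msg2 (adjusted p = 0.0016 in limma), and its axr2 difference was -0.28 ± 0.23 (adjusted p = 0.39 in limma). Treated axr2 exceeded treated msg2 by 1.02 (adjusted p = 0.0050 in limma), a call lost without axr2 24-eBL replicate 2 or msg2 24-eBL replicate 1 (adjusted p up to 0.099). AT4G33660 was higher in axr2 by 0.77 ± 0.25 (adjusted p = 0.046 in limma), a call lost under 10 of the 12 omissions of 1 array (adjusted p up to 0.27).

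Of the 76 members without a single gene, 15 had at least 1 dim array in treated axr2, as did 5 of the 50 single-gene members. The member with the widest gap between replicates, a probe set with no gene, had 7.40 and 6.73 in untreated msg2, 4.51 and 2.06 in untreated axr2, and 8.89 and 8.88 in untreated wild type. With 24-eBL it had 7.69 and 8.15 in msg2, 5.55 and 0.82 in axr2, and 8.43 and 9.26 in wild type. All 4 axr2 arrays were dim, and treated axr2 was at least 3.34-fold lower than treated msg2 (adjusted p = 0.0025 in limma). Over all 126 members, at least 1 dim array was found for 19 in untreated axr2, 20 in treated axr2 and 2 in each msg2 group. Wild type had 0 in each group, where the rule's minimum level and bound leave little room for dim arrays. The single member that rose in treated axr2 against wild type was a probe set paired with several genes, with a difference of 0.72 (adjusted p = 0.046 in limma), chosen for mention after its value was seen.

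The lists of auxin, brassinosteroid, gibberellin, ethylene, cell-cycle, cellulose, pectin, aquaporin, root hair and lateral root genes were matched by gene symbol or synonym. Few of their genes had a single-gene probe set, and by name none of the 50 single-gene members matched. The rule leaves out WAG2, HAT2, AT2G18010 and the expansins by name, so these could not match. Of all names left out, only EXPA8 met the thresholds. Members known only by locus could not be matched in this way, such as the pectin methylesterase gene AT3G43270. Of 3 tested Aux/IAA genes, IAA20 fell in treated axr2, by 0.46 ± 0.17 (adjusted p = 0.047 in limma), and IAA18 and IAA29 differed by -0.22 ± 0.20 and -0.23 ± 0.39. In treated msg2 the differences were -0.32 for IAA20, 0.00 for IAA18 and 0.77 for IAA29, with adjusted p of 0.28 or more in limma. IAA29 was higher in untreated msg2 by 1.75 ± 0.39 (adjusted p = 0.017 in limma). Of 3 tested GH3 genes, whose enzymes conjugate auxin to amino acids, WES1 fell in both treated mutants, by 1.34 ± 0.15 in msg2 and by 1.78 ± 0.15 in axr2 (adjusted p = 1.6e-05 and 7.5e-08 in limma). GH3.17 was higher in treated msg2 by 0.57 ± 0.16 (adjusted p = 0.038 in limma), and GH3.3 was called in neither treated mutant. In untreated msg2 GH3.3 was higher by 1.12 ± 0.26 and GH3.17 by 0.66 ± 0.16 (adjusted p = 0.019 and 0.026 in limma). WES1 was lower in untreated axr2 by 0.64 ± 0.15 (adjusted p = 0.0028 in limma). Of 3 tested SAUR genes, short-lived auxin-induced transcripts, AT1G43040 fell by 2.57 ± 0.37 in treated axr2, AT2G18010 fell by 2.48 ± 0.63, and AT3G53250 rose by 1.99 ± 0.40 (adjusted p = 4.8e-05, 0.0061 and 0.0010 in limma). In treated msg2 their differences were -0.98, -2.01 and -0.15, with adjusted p of 0.060 or more in limma. In untreated seedlings AT2G18010 was lower by 3.18 ± 0.63 in msg2 and by 3.31 ± 0.63 in axr2 (adjusted p = 0.0074 and 0.00056 in limma). AT3G53250 was higher in untreated axr2 by 2.03 ± 0.40 (adjusted p = 0.00074 in limma).

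Among 3 gibberellin receptor genes, GID1C fell by 0.98 ± 0.22 in treated msg2 and by 1.06 ± 0.22 in treated axr2 (adjusted p = 0.012 and 0.0014 in limma), and GID1B fell by 0.72 ± 0.19 and 1.19 ± 0.19 (adjusted p = 0.029 and 0.00015 in limma). GID1A gave 0.06 ± 0.18 in msg2 and -0.02 ± 0.18 in axr2. WAG2, for a kinase acting on auxin transporters, and HAT2, an auxin-induced homeobox gene, fell in treated axr2, by 1.62 ± 0.18 and 1.66 ± 0.18 (adjusted p = 2.5e-06 and 2.7e-06 in limma). Neither was called in treated msg2. In untreated axr2 GID1C was lower by 1.46 ± 0.22 and GID1B by 0.89 ± 0.19 (adjusted p = 7.3e-05 and 0.0017 in limma). WAG2 was lower there by 1.90 ± 0.18 and HAT2 by 1.05 ± 0.18 (adjusted p = 3.6e-07 and 0.00028 in limma). None of these genes was called in untreated msg2. Untreated calls of list genes, here and in the paragraph before, stand against frequent calls in axr2. Of other probe sets at the members' wild-type level and bound, 20.8% were called lower and 18.7% higher in untreated axr2. In untreated msg2 these shares were 1.31% and 1.99%. Some list genes, such as IAA29, lie below that level.

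By chromosome, 13 single-gene members lay on chromosome 1, 4 on chromosome 2, 11 on chromosome 3, 12 on chromosome 4 and 10 on chromosome 5, in the order of genes in RefSeq's TAIR10.1. The nearest neighbours were on chromosome 4, where 6 protein-coding genes lie between AT4G16146 and AT4G16190 and 9 between AT4G16190 and AT4G16260. On chromosome 3, 9 lie between AT3G43270 and AT3G43430. AT4G16146 fell by 1.63 ± 0.25 in treated msg2 and by 2.41 ± 0.25 in treated axr2 (adjusted p = 0.00047 and 9.1e-07 in limma). Promoter and other sequences of the members were not analysed here.

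Of the genes set as cell type markers, 4 had a single-gene probe set. OLEO3, an oil-body protein gene of seed reserves, had 10.76 and 10.74 in untreated msg2, 10.81 and 10.96 in untreated axr2, and 11.41 and 11.06 in untreated wild type. With 24-eBL it had 10.94 and 11.10 in msg2, 10.69 and 10.57 in axr2, and 11.65 and 11.65 in wild type, so both mutants lay below wild type in both conditions, and the part of this in the members' lower values was not tested. EXPA18, of root hair cells, had 9.49 and 9.13 in untreated msg2, 8.87 and 8.85 in untreated axr2, and 8.46 and 8.61 in untreated wild type, so this marker was not lower in the untreated mutants. Treated seedlings gave 6.44 and 6.22 in msg2, 7.66 and 6.96 in axr2, and 6.39 and 6.64 in wild type, higher in axr2 than in wild type by 0.80 ± 0.24 (adjusted p = 0.017 in limma) and different by -0.18 ± 0.24 in msg2 (adjusted p = 0.73 in limma). EXPA7, also of root hair cells, had 7.82 and 7.26 in untreated msg2, 7.31 and 6.81 in untreated axr2, and 7.18 and 7.58 in untreated wild type, with overlap. Treated seedlings gave 5.60 and 4.68 in msg2, 6.24 and 5.08 in axr2, and 5.77 and 4.81 in wild type, again with overlap. CLV3, of the shoot meristem, was dim on all 12 arrays.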

How the data were processed

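Transcripts of whole dark-grown seedlings were measured on 12 arrays in 6 groups of 2. The deposited values are log2 signals, made by the authors with MAS 5.0 per the submitters' design text, which also names GeneSpring 11.0. The 2% trimmed mean of the linear signal lay between 500.05 and 500.06 on each array, and the values were not normalised again. Detection calls were not used here. The number of arrays limits the precision.

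Group means chose the members. The members and gene lists were chosen with earlier results of these data known. Probe sets with at least 2 arrays above their own 40th percentile were tested, 15025 in all, including all 126 members. In limma 3.58.1 (R 4.3.3), 1 mean per group was fitted to all 12 arrays, with variances moderated along an intensity trend (6 residual and 12 prior degrees of freedom). Within each comparison p was adjusted by the Benjamini-Hochberg method over all tested probe sets, and a call needed an adjusted p under 0.05. SEs are those of this fit. The code was tested on simulated data.

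Single-gene members were named by fixed rules on rank: the 12 with the lowest average untreated difference, up to 6 per direction called between the treated mutants, the 6 smallest adjusted p-values and 4 smallest differences in each treated mutant, and those nearest the thresholds; others appear by role. Alternatives covered scaling, an offset, filters, the variance model, the arrays fitted, a replicate block, single omitted arrays and the rule's thresholds.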

Additional observations from a re-analysis of the deposited data

Results flagged for a closer look

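In 21 single-gene members the difference from treated wild type was called different between mutants (limma, treated axr2 against msg2, adjusted p under 0.05). Of these 21 calls, 12 were kept under every alternative tried. The 9 members named by rank in adjusted p are given here. Treated axr2 was lower in 6 of them, with log2 differences of -3.26 for AT4G22460, -2.92 for AT5G19890, -2.74 for AT1G70270, -2.35 for AT5G45950, -1.70 for STR18 and -1.41 for ATL8. These 6 were called under every alternative tried. Treated axr2 was higher by 1.02 for AT3G07350, by 0.97 for AT5G47610 and by 0.77 for AT4G33660, and each of these 3 lost its call when at least 1 treated mutant array was left out. Both treated mutants share the wild-type arrays, which cancel in this comparison.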

How the results depend on the processing

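The number of members was 272 with a threshold of -0.6 and 68 with -1.0, all 68 being members already. Other scalings, levels and the rule without the bound gave 94 to 175, and omission of 1 array gave 118 to 162. These numbers hide changes in which probe sets were chosen. Without untreated wild-type replicate 1 only 95 of the members were chosen again, and without untreated wild-type replicate 2 only 102. Without untreated msg2 replicate 2 it was 106. The other omissions of an array used by the rule kept 116 to 122 of the members. Treated msg2 had 58 to 95 members called lower under the other settings and 60 to 86 without single arrays, and treated axr2 had 102 to 137 and 97 to 108. Between the treated mutants, 39 to 68 members were called lower in axr2, and 38 to 52 without single arrays. The 8 called higher became 5 with no filter and 4 with no intensity trend, and ranged from 1 to 11 without single arrays. The highest counts of lower calls under these other settings come from the 159 probe sets chosen without the bound. Of 45 called results of genes named by rank, 10 lost the call under at least 1 alternative, and none turned its direction. Many of these genes were named for small adjusted p-values, which favours stable calls. Over all single-gene members, 19 of 32 calls in treated msg2 and 34 of 41 in treated axr2 were kept under every alternative. Between the treated mutants 12 of 21 were kept. The cause of the losses was not tested. Replicate numbers did not pair the arrays: over 15 pairs of groups, deviations of same-numbered arrays correlated between -0.08 and 0.07. With the replicate number as a block, 82 members were lower in treated msg2, 107 in treated axr2, and 48 lower and 8 higher in treated axr2 than in treated msg2. Dim signals in axr2 limit the folds of 20 members with 24-eBL to lower bounds.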
